A study of Mus musculus with 10 samples.

Results

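The Krüppel-like factors (KLFs) are zinc finger transcription factors, and 10 of their genes, Klf3, Klf4, Klf5, Klf6, Klf7, Klf9, Klf10, Klf12, Klf13 and Klf15, are described here in 10 RNA-seq libraries of cells sorted from layer 5 of the mouse motor cortex, which the labels name as projection neurons. All 10 genes are among the 24453 in the count table. They were taken by gene name, but the list was drawn up after results of these libraries were known, so the members count as chosen by their read counts in the comparison of the 2 sorted types. Their differences between the types are therefore a description: calls and intervals given beside them test nothing about the family.

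Every KLF ends in a conserved block of C2H2 zinc fingers that bind GC-rich DNA, the GC box and the CACCC box, and the members differ mainly in the region before the fingers. That region recruits different partners: Klf3, Klf8 and Klf12 bind the corepressor CtBP, Klf1, Klf2, Klf4, Klf5, Klf6 and Klf7 bind acetyltransferases, and Klf9, Klf10, Klf11, Klf13, Klf14 and Klf16 bind the Sin3 corepressor. In neurons the family is known for its hold on axon growth, with Klf4 and Klf9 limiting it and Klf6 and Klf7 favouring it, and Klf9, Klf13 and Klf15 are known to respond to glucocorticoids or other hormones.

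The cells came from 5 male hemizygous Fezf2-Gfp mice, line (Zfp312-EGFP)CO61GsatMmnc on a Swiss Webster background, in which a transgene drives GFP under Fezf2 regulatory sequence. At postnatal day 23 to 25 the retrograde tracer cholera toxin subunit b (CTB) coupled to Alexa 647 was placed in the left primary motor cortex, and 5 to 7 days later, at postnatal day 28 to 32, layer 5 of the right primary motor cortex was dissected and dissociated. CTB-labelled cells, named in the labels as intratelencephalic projection neurons (IT-PNs), which reach the other hemisphere, were sorted by FACS from each animal into cells with GFP (Fezf2+ve, 5 libraries) and cells without it (Fezf2-ve, 5 libraries). RNA was reverse transcribed from oligo dT, amplified by PCR and in vitro transcription, and sequenced. Both types carry the transgene and the tracer, so the types were separated by the GFP gate alone, and the gate reads the reporter rather than Fezf2 itself.

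Each library held 89138 to 217738 reads on genes. The Fezf2+ve libraries 1 to 5 had 118134, 107643, 118069, 151591 and 203379 reads, and the Fezf2-ve libraries of the same animals had 167916, 89138, 168711, 211368 and 217738. A count of 3 reads, used as the floor in each library, is 13.8 to 33.7 CPM (reads per 1000000 reads of the library), depending on the library. The reads carry no molecular identifiers and PCR copies are not independent, so floors and intervals cover counting error only. These counts do not allow the type labels to be checked on Fezf2, which had 1 read in all, in Fezf2+ve 5. The 12 markers of excitatory cortical neurons had 1475 reads, most of them of Rorb (728) and Camk2a (588), and Cux2 had 95 reads and was read in all 10 libraries. Slc17a7, a vesicular glutamate transporter, had 11 reads, Neurod6 had 2, and Tbr1 and Fam84b had 0. Neuron markers summed to 83.6 to 808 CPM in Fezf2+ve and 89.3 to 197.5 CPM in Fezf2-ve, below the sum of microglia markers in every Fezf2-ve library (1911 to 7184 CPM) and below the sum of astrocyte markers in every Fezf2+ve library (492 to 7739 CPM). The excitatory markers summed to 7136 CPM in Fezf2-ve 3, close to the microglia sum there (7184 CPM). In any other library they summed to at most 457 CPM. Sums over lists of different genes do not measure shares of cells. The markers thus do not settle the label of neurons for each library, and the libraries are called by the sort gate below. Less RNA of a gene in a bulk library can come from fewer cells of a kind or from less RNA per cell, and these cannot be told apart here.

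The 10 members had 12544 reads over the 10 libraries, and 11827 of these, 94.3%, were reads of Klf13. The remaining 717 reads fell mostly on Klf12 (509) and Klf7 (163), followed by Klf6 (29), Klf3 (9) and Klf4 (5), with 1 read each for Klf10 and Klf15. Klf5 and Klf9 had 0 reads in all libraries. In all, 5 members were above the floor of 3 reads in at least 1 library, and 6 reached 10 CPM in at least 2 libraries, the filter for testing: Klf3, Klf4, Klf6, Klf7, Klf12 and Klf13. Of these 6, Klf3, Klf4, Klf6 and Klf7 passed only because of the Fezf2-ve libraries, so the filter itself favoured that side for these 4. Single libraries carried much of each gene, and for 5 of the members with more than 1 read a single library held over 50% of the reads.

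**Figure D1:**
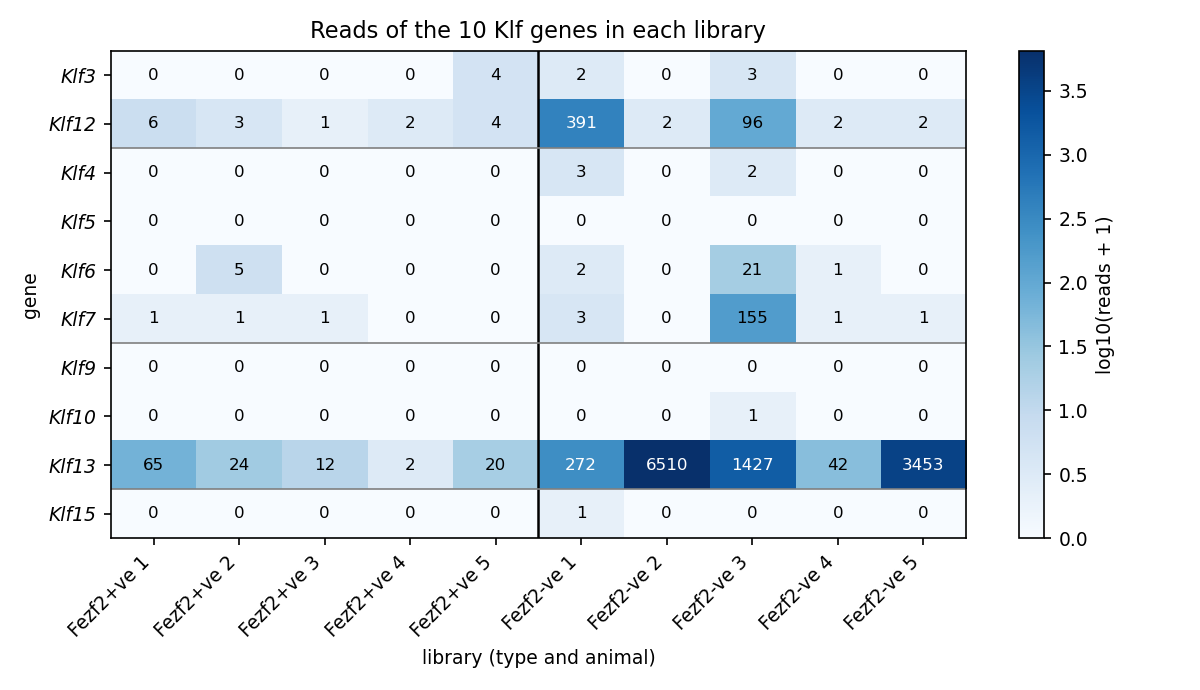
Heat map of the reads of the 10 Klf genes (vertical axis, ordered by cofactor group) in the 10 libraries (horizontal axis, Fezf2+ve left of the line and Fezf2-ve right of it), with the read count printed in each cell and the colour on a log10(reads + 1) scale. Klf13 has reads in all 10 libraries and up to 6510 in Fezf2-ve 2, while Klf5 and Klf9 are at 0 throughout.

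The counts may take in reads on introns, which would bear on long genes such as Klf12 and Klf7. Of 31 protein-coding genes with at least 10 reads that lie inside an intron of another gene, the host gene had at least as many reads in every library in 27 (87.1%), and for pairs on opposite strands in 19 of 21 (90.5%). A host gene's own exon reads can give the same result, so the check does not settle it. Levels of different genes are compared first as mean CPM per kilobase of the gene's whole span. On that scale Klf13 came first in both types, at 377 in Fezf2-ve and 3.75 in Fezf2+ve. In Fezf2-ve it was followed by Klf6 (3.17), Klf7 (2.04), Klf12 (1.42), Klf4 (1.12) and Klf3 (0.201), and these 5 rested on so few libraries that their order is within the spread of the libraries. In Fezf2+ve Klf6 stood at 1.04, Klf3 at 0.133, Klf12 at 0.0580 and Klf7 at 0.0565, with Klf4 at 0. Per kilobase of exon Klf13 again came first in both types (2634 in Fezf2-ve and 26.2 in Fezf2+ve). The order below it in Fezf2-ve was then Klf12 (84.1), Klf7 (23.3), Klf6 (6.43), Klf4 (1.95) and Klf3 (0.528). In Fezf2+ve it was Klf12 (3.44), Klf6 (2.12), Klf7 (0.645) and Klf3 (0.350), with Klf4 at 0. The order of these 5 thus depends on the length used. The RNA was primed from oligo dT, and how far gene length bears on the counts was not tested. In mean CPM without a length, Klf13 was followed in Fezf2-ve by Klf12 (588), Klf7 (189) and Klf6 (28.2).

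Klf13, also known as RFLAT-1 for its part in late T lymphocyte activation, belongs to the Sin3-binding group. It lies on chr7:63886351-63938915 on the - strand of GRCm38 and spans 52565 bases. Taken from animal 1 to animal 5, as all library values below, the Fezf2+ve counts were 65, 24, 12, 2 and 20 reads and the Fezf2-ve counts 272, 6510, 1427, 42 and 3453 reads. Fezf2-ve was the higher library in 5 of 5 animals, but the types overlapped: the lowest Fezf2-ve library, animal 4, lay below the highest Fezf2+ve library, animal 1. Animal 4 was the lowest of its type on both sides. In CPM the Fezf2+ve libraries read 550.2, 223, 101.6, 13.2 and 98.3, and the Fezf2-ve libraries 1620, 73033, 8458, 199 and 15859. As a ratio, the step within an animal was smallest in animal 1 and largest in animal 2.

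In Fezf2-ve 2, Klf13 took 7.30% of all reads (95% Clopper-Pearson interval 7.13 to 7.48%) and ranked 2 among all genes. Its share was 1.59% in Fezf2-ve 5 (1.53 to 1.64%, rank 11) and 0.846% in Fezf2-ve 3 (0.803 to 0.891%, rank 15). The other Fezf2-ve shares were 0.162% in animal 1 and 0.0199% in animal 4, and the Fezf2+ve shares lay between 0.00132% and 0.0550%. Fezf2-ve 2 alone held 55.0% of all Klf13 reads, and it was also the shallowest library, with 89138 reads.

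On the TMM-normalized log2(CPM + 1) scale, used below for levels, Klf13 stood at 6.86 ± 1.61 in Fezf2+ve and 12.31 ± 2.96 in Fezf2-ve (mean ± SD, n = 5 each). The mean paired difference, Fezf2+ve minus Fezf2-ve, was -5.44 ± 2.87 (SD, n = 5 animals). The edgeR fit with the animal as a block gave a log2 fold change of -5.75 (SE 1.83), -4.88 without animal 2 to -6.66 without animal 1, and -6.51 with the block left out. Pooled over libraries, the ratio of Fezf2-ve to Fezf2+ve reads per library read was 77.8 (95% interval 65.1 to 93.7), an interval that leaves out the spread between animals, and it was 38.5 without Fezf2-ve 2. Among all 7409 tested genes, 179 were higher in Fezf2-ve in every animal, 2.42%, and of the 6 tested members 1 was, Klf13. Nothing is read from that count, since the members were chosen by this contrast.

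An annotated protein-coding gene on the opposite strand, E030018B13Rik, lies in an intron of Klf13, and it had 0 reads in all libraries. Another transcript there, Gm27252, is annotated on the opposite strand and is not in the count table. Whether the counting used strand is not stated, so reads from either strand of the Klf13 locus may be in its count. The RefSeq promoter of Klf13 is shown because the reads of the family turn on this gene. It covers 250 bases before the start to 50 after it on GRCm38.p6 (chr7:63938866-63939165, - strand), and capitals mark CACCC or its complement GGGTG, and GGGCGG or its complement CCGCCC.
Klf13: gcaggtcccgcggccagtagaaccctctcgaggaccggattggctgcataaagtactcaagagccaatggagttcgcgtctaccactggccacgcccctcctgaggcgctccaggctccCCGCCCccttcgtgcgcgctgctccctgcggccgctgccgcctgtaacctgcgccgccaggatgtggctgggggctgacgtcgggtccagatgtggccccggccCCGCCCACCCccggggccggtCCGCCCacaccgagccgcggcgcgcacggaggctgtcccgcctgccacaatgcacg
The window is 72.0% G and C with 32 CG dinucleotides. It holds 1 CACCC box and 3 GC boxes, and the CACCC box begins with the last letter of a GC box, so that both lie in 1 run of capitals.

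The likeness search took members with at least 3 reads in at least 6 libraries, which left Klf13 alone, and ranked the tested genes outside the member list by the Pearson correlation of levels over the 10 libraries. The closest were Cdh23, a cadherin of hair cell tip links (r = 0.94, rho = 0.94), Fam105a, a relative of the deubiquitinase OTULIN (r = 0.94, rho = 0.92), and Tdrd7, a tudor domain protein of RNA granules (r = 0.93, rho = 0.89). Cdh23 had 2, 3, 1, 0 and 1 reads in Fezf2+ve against 10, 36, 18, 4 and 120 in Fezf2-ve. Fam105a had 3, 1, 1, 0 and 3 against 4, 60, 29, 1 and 275 reads. As for Klf13, the Fezf2-ve libraries of animals 2, 3 and 5 held most of the reads of both genes, and animal 4 had the fewest in each type. Tdrd7 had at most 3 reads in any library. Without the 2 libraries farthest from the median of Klf13, r was 0.91 for Cdh23, 0.91 for Fam105a and 0.85 for Tdrd7 (n = 8). The correlations are a description over libraries that share animals and carry the difference between the types.

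**Figure D2:**
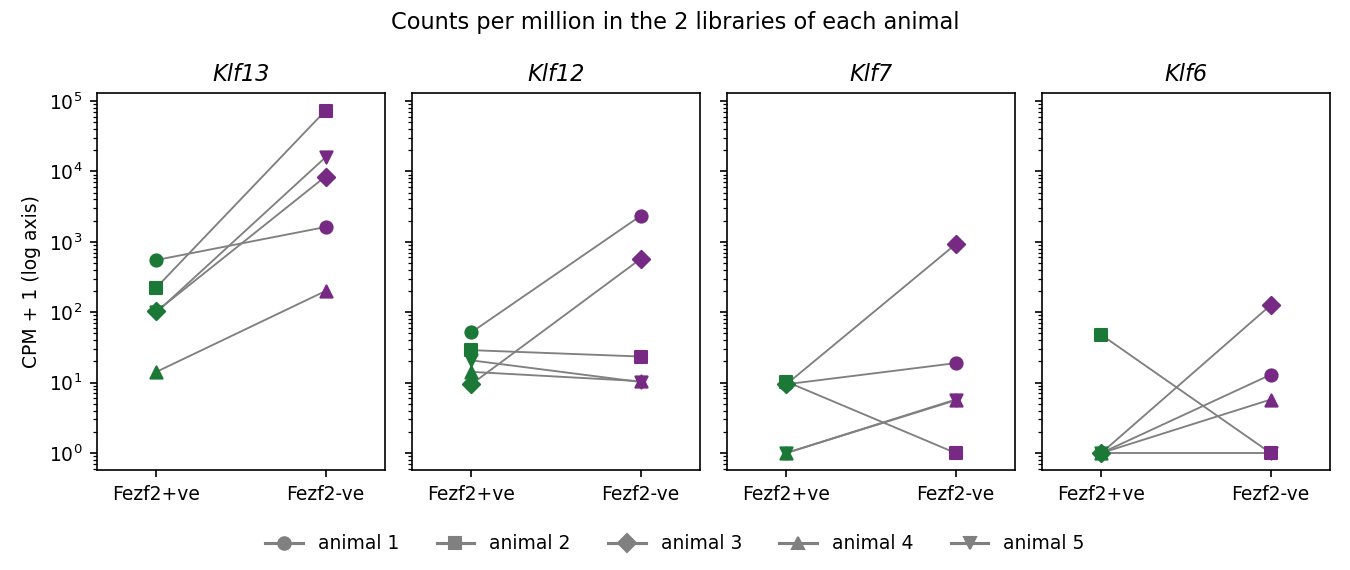
CPM + 1 on a log axis (vertical) for Klf13, Klf12, Klf7 and Klf6, with Fezf2+ve and Fezf2-ve on the horizontal axis and a line joining the 2 libraries of each animal. All 5 Klf13 lines go up toward Fezf2-ve, while for Klf12 only animals 1 and 3 do.

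The other Sin3-binding members had 1 read or none. Klf9, a hormone-responsive repressor of axon growth, had 0 reads in every library, which allows up to 3 reads, or 33.7 CPM in the shallowest library and 13.8 CPM in the deepest. Klf10, known as a TGF-beta inducible early gene, had 1 read, in Fezf2-ve 3. The genes of the group outside the 10 members were also sparse: Klf16 had 3 reads, all in Fezf2-ve 4, Klf11 had 1, in Fezf2+ve 3, and Klf14 had 0. Of the 6 genes of the group, 4 had reads and only Klf13 was tested.

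Among the CtBP-binding members, Klf12, a repressor of the AP-2 alpha gene, had reads in all 10 libraries. Its counts were 6, 3, 1, 2 and 4 reads in Fezf2+ve against 391, 2, 96, 2 and 2 reads in Fezf2-ve. Fezf2-ve 1 and Fezf2-ve 3 were high and every other library had 6 reads or fewer, so the types overlapped, and Fezf2+ve was the higher library in 3 of 5 animals. Fezf2-ve 1 held 76.8% of the Klf12 reads. Levels were 4.46 ± 0.96 in Fezf2+ve and 6.33 ± 3.36 in Fezf2-ve (mean ± SD, n = 5). The fitted log2 fold change was -1.77 (SE 1.69), and it was -0.62 without animal 1, -0.61 without animal 3 and -4.29 with the block left out. The pooled ratio of Fezf2-ve to Fezf2+ve was 25.2 (95% interval 15.4 to 44.4) and 6.48 without Fezf2-ve 1, and it describes those 2 libraries more than the type.

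Klf12 spans 414048 bases of chr14:99870632-100284679 on the - strand. The antisense transcript 4930517O19Rik and the pseudogene Gm16260 lie within it on the other strand, and neither is in the count table. Its RefSeq promoter, shown beside that of Klf13 because Klf12 is the only other member with reads in every library, lies inside this span (chr14:100149747-100150046, - strand), so the RefSeq start is downstream of the annotated start of the gene. Capitals mark the same letters.
Klf12: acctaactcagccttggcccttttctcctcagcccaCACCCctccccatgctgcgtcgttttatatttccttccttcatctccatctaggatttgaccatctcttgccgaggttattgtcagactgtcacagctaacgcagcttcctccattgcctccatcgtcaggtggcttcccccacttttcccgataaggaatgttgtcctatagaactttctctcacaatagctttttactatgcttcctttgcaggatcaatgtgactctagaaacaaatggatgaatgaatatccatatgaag
At 45.7% G and C this window is the least GC-rich of those of the members, with 6 CG dinucleotides, 1 CACCC box, 0 GC boxes and 1 TATA box (TATAAA or TTTATA). As it lies inside the annotated gene, with 49 bases in annotated Klf12 exon, it may not hold the start of the transcripts counted here.

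Klf3, the basic KLF and a CtBP-dependent repressor, had 4 reads in Fezf2+ve 5, 2 in Fezf2-ve 1 and 3 in Fezf2-ve 3, and 0 in all other libraries. It was above the floor in 1 library, and its pooled ratio of Fezf2-ve to Fezf2+ve was 1.02 (95% interval 0.220 to 5.15). The sign of its fitted log2 fold change was not settled: it was -0.52 (SE 2.24) over all animals, 0.39 without animal 1, 0.70 without animal 3 and 0.00044 with the block left out. Klf8, the CtBP-binding gene outside the member list, was read more evenly, with 0, 9, 3, 3 and 12 reads in Fezf2+ve and 0, 2, 6, 4 and 27 in Fezf2-ve. The types overlapped and each was the higher in 2 of 5 animals, with 0 reads on both sides in animal 1. The Klf8 log2 fold change was 0.04 (SE 1.07) with the block and -0.26 without it.

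Most reads of the acetyltransferase-binding members lay in Fezf2-ve 3. Klf7, a factor that favours axon growth, had 1, 1, 1, 0 and 0 reads in Fezf2+ve against 3, 0, 155, 1 and 1 in Fezf2-ve. Fezf2-ve 3 held 95.1% of its reads, and all other libraries were at or under the floor of 3 reads. The pooled ratio of Fezf2-ve to Fezf2+ve was 43.6, with a 95% interval of 14.7 to 213.6, but 1.70 (0.330 to 10.9) without Fezf2-ve 3, and Fezf2-ve was the higher library in 4 of 5 animals. The fitted log2 fold change was -2.43 (SE 1.98) with the block and -4.91 without it, and without animal 1 or animal 3 the gene no longer passed the filter. Klf6, an activator that also favours axon growth, had 5 reads in Fezf2+ve 2 and 0 in the other Fezf2+ve libraries, and 2, 0, 21, 1 and 0 reads in Fezf2-ve. The types overlapped, with Fezf2-ve 3 the highest library and Fezf2+ve 2 the next. Its log2 fold change was -1.84 (SE 2.27), and it was -0.16 without animal 3 and -4.72 without animal 2. The pooled ratio of Fezf2-ve to Fezf2+ve was 3.92 (95% interval 1.47 to 13.2), and without Fezf2-ve 3 it turned to 0.611 (0.0949 to 3.14), so its direction rests on that library.

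Klf4, a pluripotency factor and a brake on axon growth, had 3 reads in Fezf2-ve 1 and 2 in Fezf2-ve 3 and 0 in the other libraries. As no library of either type was above 3 reads, no fold is given for it. Klf5, a factor of proliferating epithelia, was listed at 0 in all libraries. Outside the member list, Klf2, a factor of endothelial quiescence, had 1 read in Fezf2-ve 4 and 3 in Fezf2-ve 5, and Klf1, the erythroid factor of the family, had 0. Klf15, a metabolic regulator in none of the cofactor groups named above, had 1 read, in Fezf2-ve 1. Klf17 had 1 read, in Fezf2+ve 5.

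Klf7 spans 92836 bases on the - strand of chr1:64029447-64122282 and overlaps Gm26649 and Gm13748 on the other strand, which are not in the count table, and Mir6899, which had 0 reads. Its RefSeq promoter (chr1:64121340-64121639, - strand) is shown as that of the third most-read member, with the same letters in capitals. This window too lies inside the annotated span, so the RefSeq start is downstream of the annotated start, and 152 of its bases are annotated Klf7 exon.
Klf7: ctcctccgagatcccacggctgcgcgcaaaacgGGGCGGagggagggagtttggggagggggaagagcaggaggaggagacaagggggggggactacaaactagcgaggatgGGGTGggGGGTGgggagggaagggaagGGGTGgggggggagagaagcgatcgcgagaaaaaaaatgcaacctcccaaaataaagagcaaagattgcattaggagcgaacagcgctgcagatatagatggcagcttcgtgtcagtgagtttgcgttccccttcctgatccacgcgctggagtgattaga
It is 58.3% G and C with 16 CG dinucleotides, and it holds 3 CACCC boxes and 1 GC box.

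Promoters of 8 of the 10 members were in the RefSeq set of 32851 promoters, all but Klf5 and Klf10. A CACCC box, CACCC on either strand, was found in 6 of the 8 (Klf3, Klf7, Klf9, Klf12, Klf13 and Klf15) and in 57.5% of all promoters. The GC box, GGGCGG on either strand, was in 6 of the 8 (Klf3, Klf4, Klf6, Klf7, Klf13 and Klf15) and in 35.7% of all. The letters of both motifs can overlap in a shared run, as in Klf13. A cAMP response element, TGACGTCA, was in 0 of the 8 and in 1.79% of all, and a TATA box was in 1 of the 8, Klf12, and in 13.6% of all. Member promoters were 45.7 to 76.7% G and C, with Klf12 the lowest and Klf3 the highest, and the median of all promoters was 52.7%. The windows of Klf12 and Klf7 lie inside the annotated genes, and 183 of the 300 bases of the Klf3 window are annotated Klf3 exon. Their values may therefore not be those of the promoters in use. Klf13 and Klf9, the most-read and the least-read of the Sin3-binding members, each held 1 CACCC box, and Klf9 had no GC box. A match is a count of letters in the window and was not tested as a binding site.

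Read together, all 6 tested members had a fitted log2 fold change below 0, that is, higher in Fezf2-ve, with a median of -2.14. Of all 7409 tested genes, 54.3% were below 0, with a median of -0.16. With genes whose Fezf2+ve or Fezf2-ve libraries were all at 0 set to their bound against the floor, or left out where both types were at or under it, the medians were -1.84 over 5 members and -0.06 over 6381 genes. Nothing is read from this direction, since the members were chosen by the contrast and 4 passed the filter through Fezf2-ve only, among them Klf4, which was at or under the floor in every library. Without animal 1 or without animal 3 only 4 members could be tested, and 3 of the 4 were below 0, with Klf3 above it. The median was then -1.04 without animal 1 and -0.38 without animal 3. Fitted without the block, 5 of 6 were below 0.

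At a false discovery rate of 0.1, edgeR with the animal block called 0 of 7409 genes between the types (0%), and so 0 of 6 members. At an unadjusted p under 0.05 it took 288 genes, 3.89%, and 1 member, Klf13. DESeq2 with the block called 98 of the 1664 genes to which it gave an adjusted p, 5.89%, with 1 member, Klf13, among them, and it gave no adjusted p for Klf3, Klf4 and Klf6. By edgeR without the replicate block, so with the libraries unpaired, 279 genes were called, 3.77%, and again 1 member, Klf13. In fits chosen after seeing the data, with each animal left out in turn, edgeR without the block called 0 genes each time, with Klf13 at an adjusted p of 0.179 to 0.198 and a log2 fold change of -7.76 to -5.20. DESeq2 with the block called 24 to 104 genes in such fits, Klf13 among them each time, at an adjusted p of 0.000243 to 0.0334. These calls use the contrast by which the members were chosen, and nothing about the family is read from them.

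**Figure D3:**
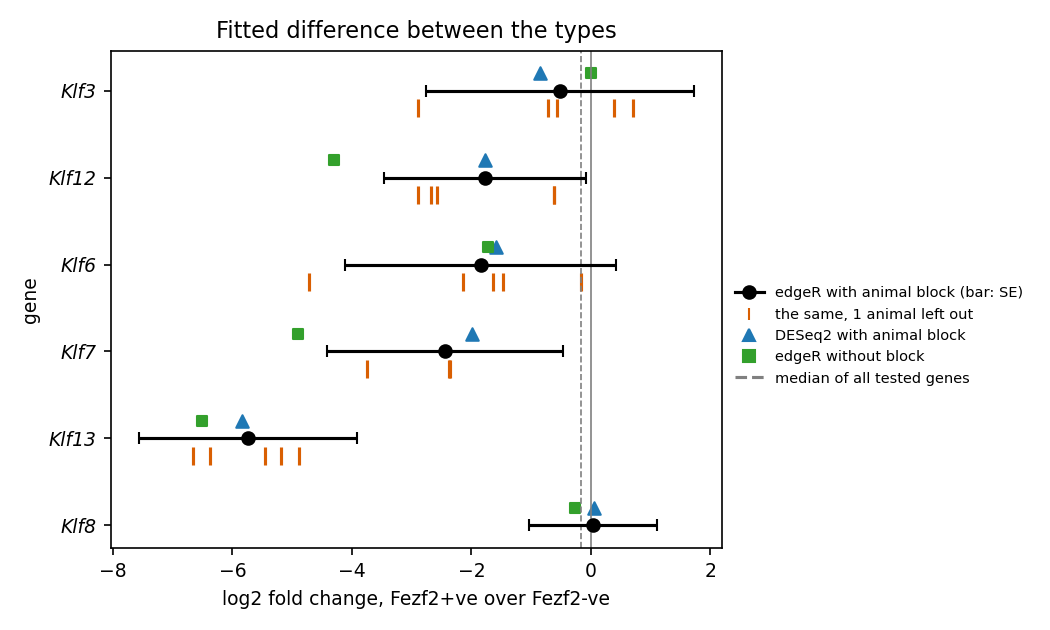
Fitted log2 fold change, Fezf2+ve over Fezf2-ve (horizontal axis), of 5 tested members and Klf8 (vertical axis), from edgeR with the animal block (points, bars are SE), with 1 animal left out (ticks), from DESeq2 with the block (triangles) and from edgeR without it (squares); the dashed line is the median of all tested genes, -0.16. Klf13 stays between -6.66 and -4.88 in all of them, and Klf3 lies on both sides of 0; no leave-out values are drawn for Klf8, and Klf4 is not drawn because it had at most 3 reads in any library.

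The contrast that did not choose the members is the one between animals. There, Klf12 had most of its reads in animals 1 and 3 and Klf7 in animal 3, but only in their Fezf2-ve libraries. In the Fezf2+ve libraries of animals 1 and 3 Klf12 had 6 and 1 reads, and Klf7 had 1 in animal 3. These high libraries are thus part of the type contrast as well and do not show a difference between whole animals. Klf13 was lowest in animal 4 in both types. By the edgeR F-test over animals, with the type in the fit, 0 of 7409 genes were called (0%) and 0 of 6 members. At an unadjusted p under 0.05 it took 535 genes, 7.22%, and 0 members, and the smallest p of a member was 0.102, for Klf7 (edgeR). By the DESeq2 likelihood ratio test 304 of 945 genes with an adjusted p were called, 32.2%, and 0 members, of which 4 had no adjusted p. Klf12 and Klf13, the members with an adjusted p there, stood at 0.234 and 0.226 (DESeq2). Without the filter the edgeR F-test called 1 of 14508 genes and 0 of 8 members. At an unadjusted p under 0.05 it then took 912 genes and 1 member, Klf7. With animal 3 left out it took 165 of 6184 genes and 1 of 4 members, Klf12.

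The other genes of the family and its partners were mostly sparse, and edgeR with the block called none of them. Of the 7 Klf genes outside the member list, 5 had reads and only Klf8 was tested. Of the 9 Sp genes, the closest relatives of the KLFs, 6 had reads and 3 were tested, 2 higher in Fezf2+ve, 1 in Fezf2-ve, with a median log2 fold change of 0.04. Sp1, the most abundant, had 90 of its reads in Fezf2-ve 4 and at most 3 in any other library. The CtBP-binding group had 3 of 3 genes tested (1 higher in Fezf2+ve, 2 in Fezf2-ve) and the acetyltransferase-binding group 3 of 6 (all 3 higher in Fezf2-ve), and none of these had an unadjusted p under 0.05. The Sin3-binding group had 1 of 6 tested, Klf13.

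Of 16 cofactors of the family, 9 were tested, 3 higher in Fezf2+ve, 6 in Fezf2-ve, with a median of -0.31. Crebbp, an acetyltransferase that KLFs recruit, was the only one with an unadjusted p under 0.05. Its reads were 0, 1, 0, 0 and 0 in Fezf2+ve and 3, 0, 54, 8 and 1016 in Fezf2-ve, so that 93.9% lay in Fezf2-ve 5. DESeq2 and edgeR without the block each called 1 cofactor, Crebbp. Of 12 hormone receptors and coactivators upstream of Klf9, Klf13 and Klf15, 8 were tested, 3 higher in Fezf2+ve, 5 in Fezf2-ve, with a median of -0.62. The coactivator Ncoa3 was the only one with an unadjusted p under 0.05, with 1, 0, 1, 0 and 2 reads against 3, 10, 95, 6 and 4.

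Of 11 glucocorticoid-induced genes 7 were tested, 2 higher in Fezf2+ve, 5 in Fezf2-ve, with a median of -0.79. Sgk1, a kinase induced by corticosteroids, was the only one with an unadjusted p under 0.05 and was called by DESeq2 and by edgeR without the block. It had 4, 0, 4, 1 and 3 reads in Fezf2+ve and 44, 18, 78, 418 and 11 in Fezf2-ve, higher in Fezf2-ve in 5 of 5 animals. Its highest library was Fezf2-ve 4, the lowest of the Fezf2-ve libraries for Klf13. What the reads of this list have to do with the Klf13 counts was not tested. Of 15 axon growth genes (Basp1 is listed under its alias Cap23 as well), 10 were tested, 5 higher in each type, with a median of 0.03 and none with an unadjusted p under 0.05. The most abundant of them, Tuba1a, a neuronal tubulin, had 57.1% of its reads in Fezf2-ve 4. Of this list, Gap43 and Stmn2 are also among the neuron markers below.

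Microglia markers lay higher in Fezf2-ve, on the same side as Klf13. All 16 microglia markers had reads and 15 were tested, all 15 higher in Fezf2-ve, with a median of -4.78, and 11 had an unadjusted p under 0.05 (10 called by DESeq2, 10 by edgeR without the block, 0 by edgeR with it). Their summed CPM was 262, 195, 93.2, 72.6 and 138 in the Fezf2+ve libraries and 7015, 4712, 7184, 1911 and 3982 in the Fezf2-ve libraries, so the types did not overlap. Ctss, a lysosomal cathepsin, was the most abundant, with 5, 4, 0, 0 and 1 reads against 372, 91, 196, 92 and 56. Csf1r, the receptor on which microglia depend, had 0, 2, 0, 0 and 3 reads against 51, 45, 119, 28 and 534, and P2ry12 had 3, 1, 0, 0 and 0 reads against 388, 23, 76, 20 and 11. Both the microglia sum and Klf13 were lowest in animal 4 in either type, but among the Fezf2-ve libraries the sum was highest in animal 3 and Klf13 in animal 2. All libraries were of cells sorted for CTB, and what these marker reads have to do with the Klf13 counts was not tested.

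The immediate-early and dissociation genes, which respond to activity and to tissue handling, also lay on the Fezf2-ve side. Of 22 genes, 18 had reads and 11 were tested, all 11 higher in Fezf2-ve, with a median of -2.85, and 5 had an unadjusted p under 0.05 (4 called by DESeq2, 1 by edgeR without the block). Junb had 0, 0, 0, 0 and 10 reads in Fezf2+ve and 25, 36, 29, 26 and 38 in Fezf2-ve, and Egr1 had 6, 12, 1, 1 and 6 against 37, 113, 38, 21 and 11. Btg2 had 0, 1, 0, 0 and 1 against 14, 5, 71, 5 and 18, and Zfp36 had 5, 0, 1, 0 and 1 against 29, 78, 15, 11 and 14. Fos, the most abundant, had 42, 9, 2, 1 and 14 against 41, 199, 31, 29 and 15 reads. The summed CPM of the list was 686, 437, 67.8, 191 and 251 in Fezf2+ve and 1935, 5161, 1381, 591 and 569.5 in Fezf2-ve, higher in Fezf2-ve in 5 of 5 animals with overlap between the types. Its highest library, Fezf2-ve 2, was also that of Klf13. Among the Fezf2-ve libraries, though, the sum was lowest in animal 5, where Klf13 was high (15859 CPM). Fosl2, Egr4, Nr4a2 and Npas4 had 0 reads. The part of this list in the Klf counts was not tested.

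Of 8 blood markers 6 were tested, all 6 higher in Fezf2-ve with an unadjusted p under 0.05 and a median of -4.01 (2 called by DESeq2, 0 by edgeR with or without the block). Their sum was 1507, 186, 16.9, 0 and 4.92 CPM in Fezf2+ve and 7105, 5609, 367.5, 478 and 9.19 in Fezf2-ve, with Hbb-bs the most abundant. All 6 also had an unadjusted p under 0.05 between animals, and the types overlapped. Hbb-bs had 40, 5, 0, 0 and 0 reads against 225, 112, 8, 20 and 0. Hba-a1 and Hba-a2 had the same reads in every library, 14, 1, 1, 0 and 0 against 163, 44, 15, 10 and 1, as did Hbb-bt and Hbb-b2, with 35, 4, 0, 0 and 0 against 207, 94, 8, 20 and 0, so the reads of these near-identical copies cannot be told apart. Blood sums were lowest in animals 3, 4 and 5, and Klf13 was high in Fezf2-ve 3 and Fezf2-ve 5. What the blood reads have to do with the Klf13 counts was not tested.

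Among neuron markers 8 of 12 were tested, 7 higher in Fezf2+ve, 1 in Fezf2-ve, with a median of 1.45. None had an unadjusted p under 0.05, and no fit called any of them. The list summed to 432, 808, 406.5, 363 and 83.6 CPM in Fezf2+ve and 89.3, 112, 142, 99.4 and 197.5 in Fezf2-ve. These sums overlapped between the types, and in animal 5 the Fezf2-ve library had the larger sum. Map2 was the most abundant, and Nefl and Nefh were at 0. Of 12 excitatory markers 6 were tested, 3 higher in each type, with a median of -0.30. The most abundant, Rorb, had 88.7% of its reads in Fezf2-ve 3, the library that held most of the reads of Klf7 and of Klf6. The excitatory sum was 7136 CPM in Fezf2-ve 3 and at most 457 in any other library. Of 10 inhibitory markers none was tested and 6 had 0 reads, among them Pvalb, Vip and Slc32a1, with Npy the most abundant at 7 reads. The part of these differences in the Klf counts was not tested.

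Astrocyte markers (9 of 12 tested, 6 higher in Fezf2+ve, 3 in Fezf2-ve, median 1.70) had summed CPM of 492 to 7739 in Fezf2+ve and 94.8 to 3809 in Fezf2-ve, with Slc1a2 the most abundant and Gfap at 0. Oligodendrocyte markers (7 of 10 tested, 5 and 2, median 0.40) had 105.5 to 10795 CPM and 113.5 to 2049 CPM, with Opalin at 0. Oligodendrocyte precursor markers (8 of 8 tested, 5 and 3, median 0.77) had 92.4 to 3372 and 142 to 1179 CPM, with Pdgfra the most abundant. These 3 lists overlapped between the types and had no gene with an unadjusted p under 0.05. Endothelial markers (4 of 10 tested, 2 higher in each type, median 0.20) summed to at most 83.6 CPM in any library, led by Flt1, with Esam at 0. None of the mural and fibroblast markers was tested, with 11 reads in all, led by Pdgfrb, and 7 of 10 genes at 0. Fezf2-ve 2, the library with most Klf13 reads, had 269 CPM of astrocyte and 662 CPM of oligodendrocyte markers.

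**Figure D4:**
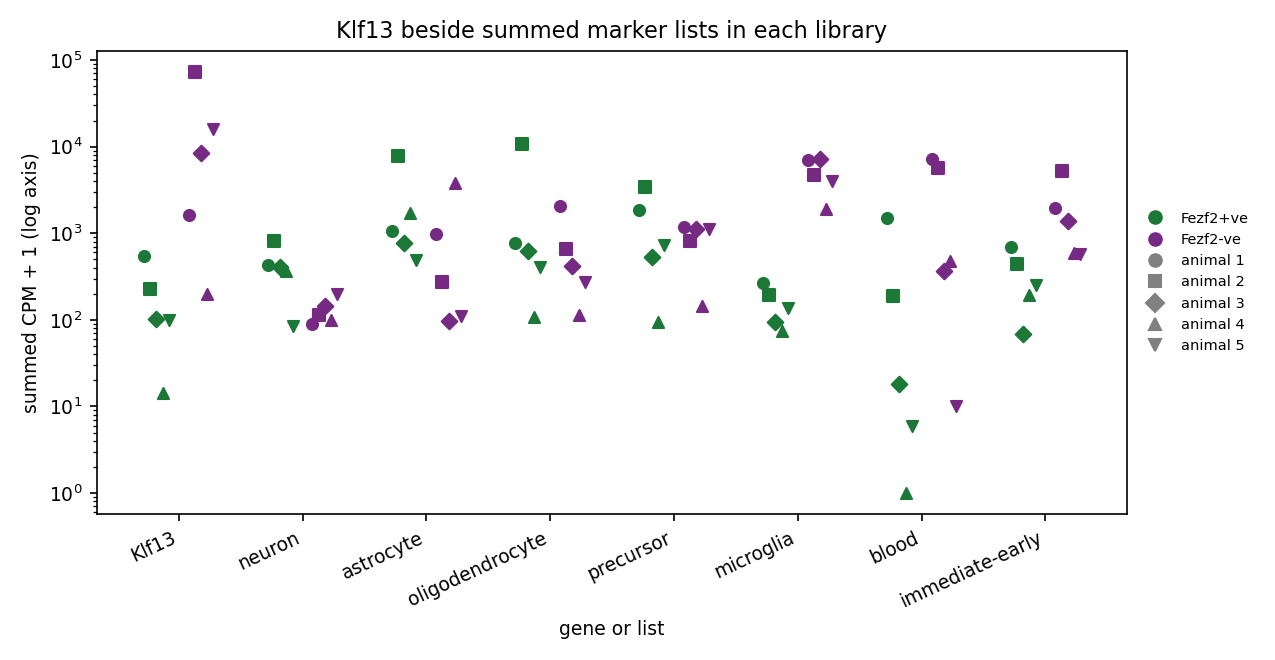
CPM + 1 of Klf13 and summed CPM + 1 of 7 gene lists (horizontal axis) in each library on a log axis (vertical), with 1 point per library, colour for the type and shape for the animal. Klf13 and the sums of the microglia, blood and immediate-early lists are higher in Fezf2-ve in every animal, and of all the columns only the microglia sums do not overlap between the types (72.6 to 262 against 1911 to 7184 CPM).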

How the data were processed

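The authors deposited raw read counts per gene for 10 RNA-seq libraries. The reads were demultiplexed by inline barcode, trimmed, mapped to mm10 with TopHat2 2.1.1 and counted on RefFlat genes with bedtools 2.26.0. All 10 columns of the deposited counts were used and 0 were left out. The deposited DESeq2 table holds the authors' own comparison and was not used, and neither was the spike-in (ERCC) table.

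The filter kept genes that reached 10 CPM in 2 or more libraries, 7409 of 24453. Counts were normalized by TMM and fitted with the edgeR 4.0.16 quasi-likelihood method in R 4.3.3, with the type and the animal as a replicate block. Adjusted p-values (Benjamini-Hochberg over all tested genes) at or below 0.1 were calls. The labels state that the cells of each animal gave both types, and the library numbers 1 to 5 give the pairs. As a check, deviations from the type mean correlated within animals with a mean r of 0.0291, so taken over all genes the counts show little pairing. For single genes the 2 methods differed: between animals the DESeq2 likelihood ratio test called 304 of 945 genes and the edgeR F-test 0 of 7409. DESeq2 1.42.0, other size factors, other filters, the older quasi-likelihood form and fits without each animal in turn were the alternatives. Python 3.11.15 with numpy 2.4.6, pandas 2.3.3, scipy 1.17.1 and matplotlib 3.10.9 did the rest.

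The members and the gene lists were chosen with earlier results of these data known. Named genes are the 10 members, the most abundant gene of each list, up to 4 genes per list with an unadjusted p under 0.05 in order of p, and the 3 genes most like each member read in enough libraries, and not every gene this rule takes is reported. Genes named outside this rule, such as the Klf genes with few reads, markers at 0 and genes that overlap a member, were named after their values were seen. Positions are those of GENCODE on GRCm38. Intervals are 95% (Clopper-Pearson for shares, exact conditional binomial for ratios).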

Additional observations from a re-analysis of the deposited data

Results flagged for a closer look

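A library was set apart where its gap to the nearest library of its type, divided by the range of the 5 libraries, was above 0.71 (Dixon). The 53 groups looked at were the levels of each member and the summed level of each list in each type, and 6 met it. Chance gives about 1 in 20 groups.

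For 4 members the rest of the type was at 0, so the ratio was 1 by construction: Klf3 in Fezf2+ve 5 (level 4.67, 4 reads), Klf6 in Fezf2+ve 2 (level 5.07, 5 reads), Klf10 in Fezf2-ve 3 (ratio 1, level 2.55, 1 read) and Klf15 in Fezf2-ve 1 (ratio 1, level 2.60, 1 read). The summed level of the Klf cofactors in Fezf2+ve 2 had a ratio of 0.711, at 8.89 on the log2 scale against 7.89 in the next library. The oligodendrocyte precursor sum in Fezf2-ve 4 had a ratio of 0.827, at 7.16 against 9.68.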

How the results depend on the processing

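Over 146 combinations of a result with an alternative, 125 kept their direction and side of the threshold, or moved by less than 1.5 times (counts) or by less than the spread of the animals (the median). Between the types, genes called went from 0 to 279 without the replicate block (unpaired) and to 98 by DESeq2, and members called from 0 to 1 by each of these, Klf13. Every other alternative of the edgeR fit with the block gave 0 for both, including an adjusted p at or below 0.05 and each animal left out. The number of members higher in Fezf2-ve was 6 of 6 tested, 5 of 6 without the replicate block, 8 of 8 without the filter and 2 of 2 with the stricter filter. It was 3 to 6 with an animal left out, where 4 to 6 were tested. The median of the members ranged from -3.74 to -0.38 over all alternatives and was below 0 in all 12. Within animals 1 to 5 the median paired difference of the members was -3.48, 0.09, -6.13, -1.56 and 0, so it was not below 0 in animals 2 and 5. Each alternative moved the median from -2.14 by less than the SD of these 5 values, 2.62.

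Klf3 changed sign, to 0.00044 without the replicate block, and ranged from -2.90 to 0.70 with an animal left out. The cause was not tested. The fitted values of Klf6, Klf7, Klf12 and Klf13 were below 0 under every alternative that tested them, but the pooled ratio of Klf6 reversed, from 3.92 to 0.611, without Fezf2-ve 3. Between animals, genes called were 0, 1 without the filter and 304 by the DESeq2 likelihood ratio test, and members called were 0 throughout. The older quasi-likelihood form, the pooled ratios without 1 library and the fits of Klf13 by DESeq2 and by edgeR without the block with each animal left out were chosen after seeing the data. For Klf4 and Klf7 the fits without animal 1 and without animal 3 gave no value, since they did not pass the filter, and the stricter filter gave values for Klf12 and Klf13 only.

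Depth limits what can be said: 3 reads are up to 33.7 CPM, so Klf5 and Klf9 at 0 were not detected at this depth, which does not show them absent, and members with 1 library above the floor describe that library.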
